A study of Mus musculus with 9 samples.

Results

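Amino acid carriers were followed at the RNA level in mouse 2-cell embryos. The set comprised 61 of the 24454 genes in the deposited table: those with a symbol that begins with Slc1a, Slc3a, Slc6a, Slc7a, Slc36a, Slc38a or Slc43a, apart from the osmolyte carriers Slc6a6, Slc6a9 and Slc6a12. The choice rested on symbols and not on measured values. RNA sequencing had been run on 9 libraries, each made from 3 pooled embryos of the ICR strain that were grown in culture to the 2-cell stage. A group of 3 libraries came from embryos loaded with high glucose and given rat serum carrying a drug named ZGW in the labels, called ZGW serum here. The other groups, also of 3 libraries, were embryos loaded with high glucose alone and control embryos. The labels give no glucose concentration, and they do not state whether embryos without ZGW were given rat serum, so any effect of the serum cannot be told apart from that of the drug. No mating or dam is named for any library, so the p-values below reflect the spread between pooled samples.

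The name amino acid transporter holds for most of the set but not for all of it. 3 symbols belong to genes that lie on the strand opposite a carrier gene (Slc36a1os, Slc6a19os and Slc7a6os), which leaves 58 carriers. Of these, 7 belong to the branch of the SLC6 family that moves GABA, monoamines or creatine, and Slc43a3 is known as a carrier of purine nucleobases. Many amino acid carriers either exchange amino acids across the membrane or draw on gradients of sodium or protons. A distinct class is built from a pair of proteins, a heavy chain (Slc3a1 or Slc3a2) that brings the complex to the cell surface and a light chain of the SLC7 family that forms the transport path. In cleavage-stage embryos these carriers supply amino acids for protein and glutathione synthesis and help to hold cell volume.

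Promoter sequence is shown for the members that carry a composite site of C/EBP and ATF proteins, since such sites are the letters through which the transcription factor ATF4 acts on genes such as Slc7a11 when amino acids are scarce. The motif TGATGNAA was searched on both strands in the 250 bases upstream of RefSeq gene starts (GRCm38.p6), and 44 of the 61 genes had such a window. It was present in 2 of them, Slc7a11 and Slc7a7, and in 3.91% of all 27025 genes with a window. The sequences run 5′ to 3′ on the gene's strand, and capitals mark the matches (TGATGNAA, or its reverse complement).
Slc7a11, chr3:50443615-50443863, minus strand: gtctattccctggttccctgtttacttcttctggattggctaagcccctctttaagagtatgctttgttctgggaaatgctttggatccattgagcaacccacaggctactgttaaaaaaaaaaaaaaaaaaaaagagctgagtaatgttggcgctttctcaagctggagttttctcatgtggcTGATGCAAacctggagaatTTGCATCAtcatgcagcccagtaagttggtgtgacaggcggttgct
Slc7a7, chr14:54417945-54418194, minus strand: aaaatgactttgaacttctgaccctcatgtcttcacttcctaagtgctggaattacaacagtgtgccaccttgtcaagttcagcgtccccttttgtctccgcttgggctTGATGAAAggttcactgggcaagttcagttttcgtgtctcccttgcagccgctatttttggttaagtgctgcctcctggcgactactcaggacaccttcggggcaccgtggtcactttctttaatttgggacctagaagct
The Slc7a11 window, shown for 249 bases, held a forward match that began 65 bases before its end and a reverse match that began 46 bases before its end. The Slc7a7 window held a single match, 141 bases before its end, and a further annotated start of Slc7a7 also had 1 match. The motif TGANNNNGC, the core of the antioxidant response element read by NRF2, was searched in the same way and was present in 25 of the 44 genes and in 38.7% of all genes. Slc7a11 held 2 such matches, of which 1 overlapped the composite site. A match describes the letters of the window and not the binding of a factor.

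Library totals ranged from 11934924 to 16916343 counts. The libraries least like those of other groups were ZGW serum replicate 3 (median correlation of log2 values 0.858) and control replicate 1 (0.86), against 0.867 to 0.892 for the other 7, so results that rest on these libraries are also given without them. Markers of oocytes and 2-cell embryos were abundant in every library, with a summed level, much of it from Dppa3, of 19290 to 42380 CPM (counts scaled to the size of the library) with ZGW serum, 21020 to 30660 CPM under high glucose and 23310 to 35430 CPM in control, and 18 of the 20 exceeded a group mean of 10 CPM in each of the groups. Blood cell markers together reached 332.9 to 531.4 CPM with ZGW serum, 92.2 to 311.6 CPM under high glucose and 262 to 391.1 CPM in control, most of it from the alpha globin genes Hba-a1 and Hba-a2, which had equal values in every library. The same counts may thus enter this sum more than once. The beta globin genes Hbb-bs and Hbb-bt reached at most 0.3263 and 0.2447 CPM in any library. The leukocyte gene Ptprc was at 0 in all high glucose and all control libraries. Cd74 and Cd52, also leukocyte genes, had counts in every library. Cd74 was at 9.39, 7.82 and 0.711 CPM with ZGW serum, 5.83, 2.39 and 10.3 under high glucose and 13.8, 24.9 and 24.0 in control. Cd52 was at 13.2, 13.1 and 1.87 CPM, 4.99, 13.8 and 2.53 CPM, and 9.195, 11.6 and 21.3 CPM in the same groups. Of the 10 blood cell markers, 2, 2 and 4 exceeded a group mean of 10 CPM.

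The carrier genes as a class were of low abundance. Only 8 of the 61 averaged 10 CPM or more over the 9 libraries (13.1%, against 30.8% of all genes), 33 lay between 1 and 10 CPM and 20 lay below 1 CPM. Counts were found in every library for 37 of the genes and in none for 2, the glutamate carriers Slc1a2 and Slc1a6 of glia and Purkinje neurons. A total of 42 passed the filter on low counts and were tested (68.9%, against 69.4% of all genes), with 19 left untested. All 61 together received 63351 counts.

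**Figure D1:**
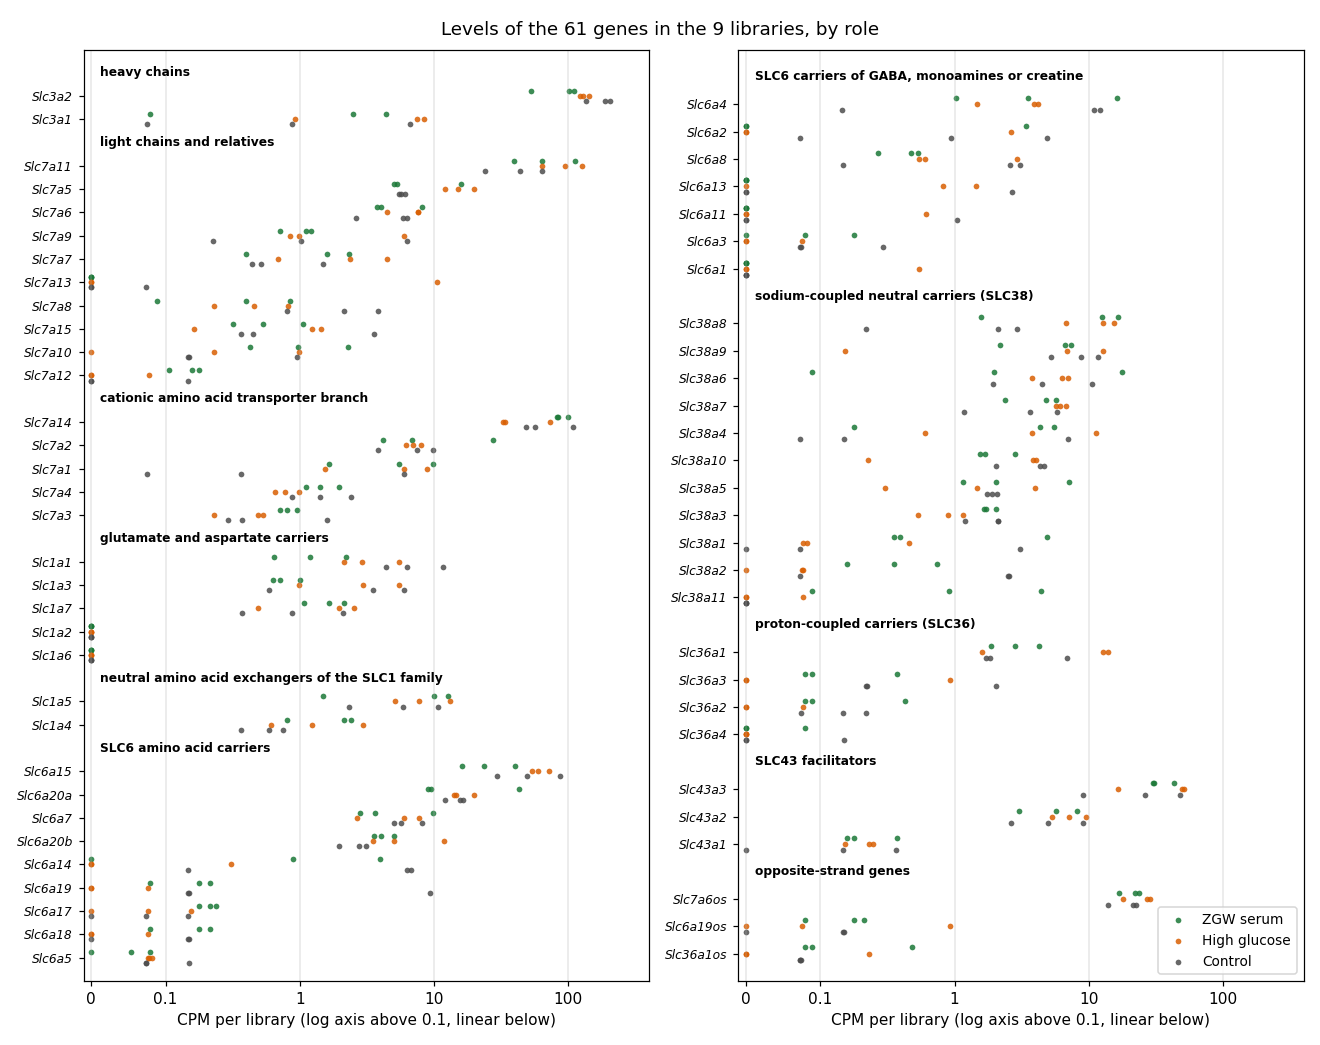
Level of each of the 61 genes in the 9 libraries, in CPM on an axis that is logarithmic above 0.1 and linear below it, grouped by role; each point is a library, coloured by group. Slc3a2 lies furthest right, and most genes of the SLC38 and SLC6 families spread over more than a factor of 10 or sit near 0.

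Levels per kilobase divide by all annotated exons of a gene, whichever of them the embryos used. On this scale the heavy chain gene Slc3a2 was the highest at a mean of 37.5 CPM per kb over the 9 libraries. It was followed by Slc43a3 at 7.60, Slc7a14 at 7.04, Slc6a15 at 6.20, Slc7a6os at 5.12, Slc7a11 at 5.07, Slc6a20a at 4.21, Slc7a5 at 2.71, Slc38a8 at 2.26 and Slc1a5 at 1.84 CPM per kb. The lowest Slc3a2 library lay above the highest library of Slc43a3, and every pair of neighbours further down this order overlapped in range.

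Slc3a2 (GRCm38, chr19:8706882-8723369, minus strand) encodes the heavy chain shared by the cystine, large neutral and cationic-neutral exchangers. Its level was 111.4, 53.35 and 102.2 CPM in the 3 ZGW serum libraries, 122.3, 128.4 and 144.5 CPM under high glucose and 188.9, 204.2 and 135.1 CPM in control. Every ZGW serum library lay below every high glucose and every control library, whereas high glucose and control overlapped through control replicate 3. Group means were 89.0 ± 31.2 CPM with ZGW serum, 131.7 ± 11.5 CPM under high glucose and 176.1 ± 36.3 CPM in control (SD, n = 3 each), from 1003 to 2739 counts per library. The log2 fold change was -0.98 ± 0.31 (SE) for ZGW serum over control, and it did not pass after Benjamini-Hochberg adjustment over all 16964 genes tested (edgeR quasi-likelihood test, adjusted p = 0.409). The adjusted p ran from 0.093 by DESeq2 to 0.752 without control replicate 1 and ZGW serum replicate 3 over the alternative analyses. ZGW serum over high glucose gave -0.57 ± 0.31 (edgeR adjusted p = 0.652), and high glucose over control gave -0.42 ± 0.31 (edgeR adjusted p = 0.811).

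The summed level of cumulus and granulosa cell markers followed the same order of groups as Slc3a2, though not every single marker did. The sum over 16 genes was 36.2 to 44.5 CPM with ZGW serum, 46.9 to 49.5 CPM under high glucose and 61.1 to 67.6 CPM in control, and 1, 2 and 2 of them exceeded a mean of 10 CPM in these groups. The most abundant of them were Nr5a2, Kitl and Amhr2. Nr5a2 was at 13.9 to 16.7 CPM with ZGW serum, 20.7 to 28.8 CPM under high glucose and 8.87 to 30.8 CPM in control, and Amhr2 was lowest under high glucose. Kitl was at 10.9, 0.160 and 14.05 CPM with ZGW serum, 13.0, 2.31 and 16.6 under high glucose and 29.8, 15.7 and 12.4 in control. Cyp19a1 averaged 1.06 ± 1.63, 2.65 ± 3.44 and 6.96 ± 9.10 CPM in the same groups (SD). Igfbp5 was at 1.57 to 7.735 CPM in control and at most 0.158 CPM elsewhere. It did not pass for ZGW serum or high glucose over control (edgeR adjusted p = 0.368 and 0.579). Of the 7 markers tested, 3 were above 0 and 4 below for ZGW serum over high glucose, and 2 above and 5 below for ZGW serum over control. The defining gene Foxl2 stayed at 0.298 CPM or less in every library, and Fshr was at 0 in all ZGW serum libraries and Ptx3 and Fst in all controls. Markers of stroma and epithelium (13 genes) summed to 42.9 to 96.9 CPM with ZGW serum, 99.4 to 136 CPM under high glucose and 122.9 to 239.5 CPM in control, with Epcam averaging 13.1, 38.4 and 72.6 CPM in the same groups. Of these 13, 3, 4 and 4 exceeded a mean of 10 CPM, and the defining genes Dcn (ZGW serum and high glucose) and Col3a1 (control) were at 0 in every library of those groups. Whether these counts came from such cells or from the embryos themselves was not tested, nor was the part of such cells in the Slc3a2 values. Fewer cells of a type cannot be told apart from less RNA per cell in pooled embryos.

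The heavy chain gene Slc3a1, the partner of Slc7a9 in cystine uptake by kidney and gut, was low and uneven, at 0.0789, 4.36 and 2.49 CPM with ZGW serum, 8.40, 0.924 and 7.42 CPM under high glucose and 6.64, 0.0746 and 0.877 CPM in control. The groups overlapped throughout. Of its 50-base stretches, 24.8% also occur on the opposite strand in transcripts of Prepl, so its counts may be shared with that gene.

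Among the light chains, the cystine-glutamate exchanger Slc7a11 (GRCm38, chr3:49892526-50443614, minus strand), which feeds glutathione synthesis, was at 64.2, 39.7 and 113.1 CPM with ZGW serum, 94.4, 64.2 and 127.2 CPM under high glucose and 24.0, 44.0 and 64.4 CPM in control. High glucose and control libraries overlapped only in that high glucose replicate 2 lay just under control replicate 3, and ZGW serum overlapped both. The difference did not pass the test for high glucose over control (log2 fold change 1.11 ± 0.47, edgeR adjusted p = 0.672). For ZGW serum over control it was 0.71 ± 0.47 (edgeR adjusted p = 0.648), and -0.04 without control replicate 1 and ZGW serum replicate 3.

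Slc7a5 (GRCm38, chr8:121881150-121907694, minus strand), which exchanges large neutral amino acids such as leucine, was at 5.29, 15.8 and 5.07 CPM with ZGW serum, 19.8, 15.1 and 12.1 CPM under high glucose and 5.69, 6.11 and 5.48 CPM in control. All high glucose libraries lay above all controls, which were tightly grouped, and a single ZGW serum library, replicate 2, fell in the high glucose range. The log2 fold change of high glucose over control was 1.44 ± 0.62 (edgeR adjusted p = 0.672), and that of ZGW serum over high glucose was -0.84 ± 0.61 (edgeR adjusted p = 0.746). Without ZGW serum replicate 2, Slc7a5 differed by -0.19 between ZGW serum and control, against 0.60 ± 0.61 with it.

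The other light chains were lower. Slc7a6, an exchanger of cationic for neutral amino acids, averaged 5.30 ± 2.42 CPM with ZGW serum, 6.54 ± 1.80 CPM under high glucose and 4.96 ± 2.05 CPM in control (SD, n = 3 each). Slc7a8, which shares substrates with Slc7a5, was at 0.395, 0.851 and 0.0889 CPM with ZGW serum, 0.454, 0.231 and 0.816 CPM under high glucose and 0.803, 3.80 and 2.12 CPM in control. Both treated groups of Slc7a8 reached into the control range through control replicate 1, and the log2 fold change was -2.28 ± 1.00 for ZGW serum over control (edgeR adjusted p = 0.491) and -2.15 ± 1.00 for high glucose over control (edgeR adjusted p = 0.687). Slc7a7, Slc7a9, Slc7a10 and Slc7a15 ranged from 0 to 6.28 CPM over the 9 libraries, with 81 to 250 counts each in all. Slc7a12 held 9 counts in all, and 139 of the 140 counts of Slc7a13, a light chain of kidney tubules, came from high glucose replicate 1.

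**Figure D2:**
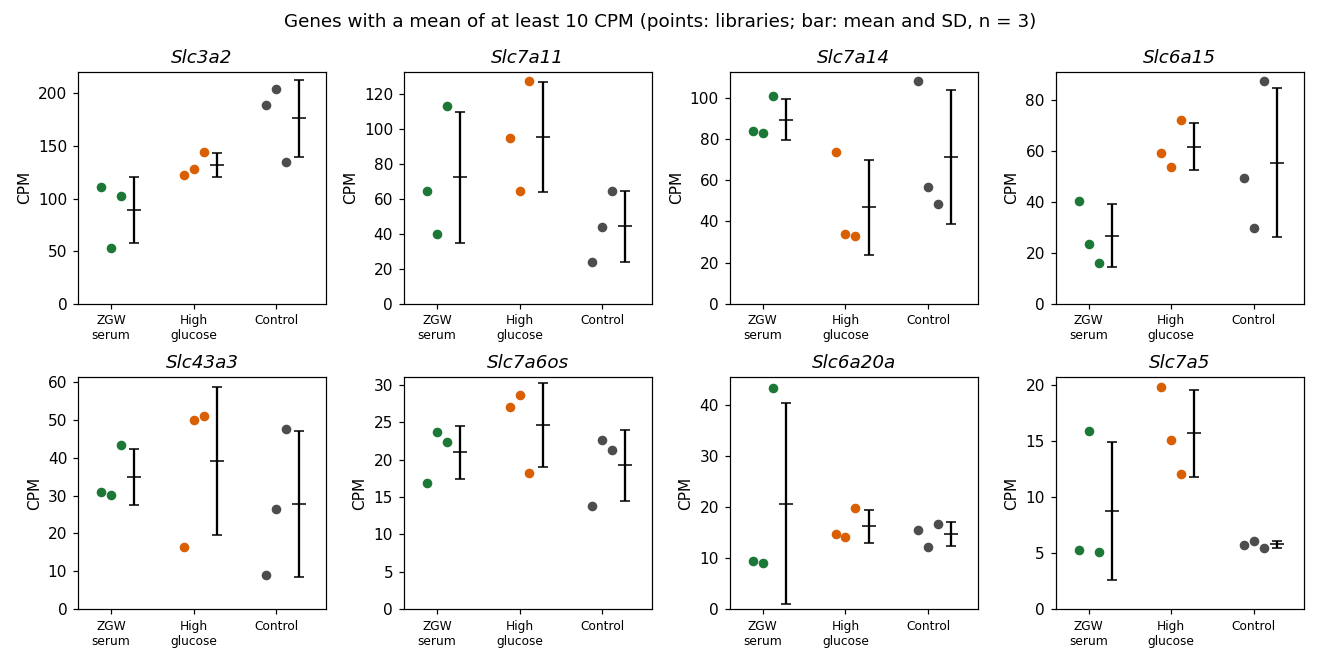
CPM of the 8 genes that averaged 10 CPM or more across the 9 libraries; points are libraries and the bar beside them is the mean with its SD (n = 3). For Slc3a2 the ZGW serum libraries lie below those of the other groups, for Slc7a5 the high glucose libraries lie above the controls, and for Slc7a14 the ZGW serum libraries lie above those under high glucose.

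The balance between heavy and light chains was described by the summed level of the 6 light chain genes known to pair with Slc3a2 (Slc7a5, Slc7a6, Slc7a7, Slc7a8, Slc7a10 and Slc7a11). Per kilobase of exon, Slc3a2 averaged 25.2 ± 8.84 CPM per kb with ZGW serum, 37.3 ± 3.26 under high glucose and 49.9 ± 10.3 in control, and the light chain sum averaged 9.81 ± 2.29, 13.5 ± 3.07 and 6.70 ± 1.71 CPM per kb in the same groups (SD, n = 3 each). The ratio of the light chain sum to Slc3a2 was 0.260, 0.582 and 0.429 with ZGW serum, 0.453, 0.275 and 0.364 under high glucose and 0.0936, 0.115 and 0.220 in control. Every ZGW serum and every high glucose library lay above every control library in this ratio. The genes in the sum were chosen with earlier results known and the ratio has no test. Slc3a2 RNA exceeded the light chain sum per kilobase of annotated exon in all 9 libraries, and the exons in use were not tested. In CPM, without regard to length, Slc7a11 alone lay above Slc3a2 in ZGW serum replicate 3 (113.1 against 102.2 CPM) and below it in the other libraries.

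**Figure D3:**
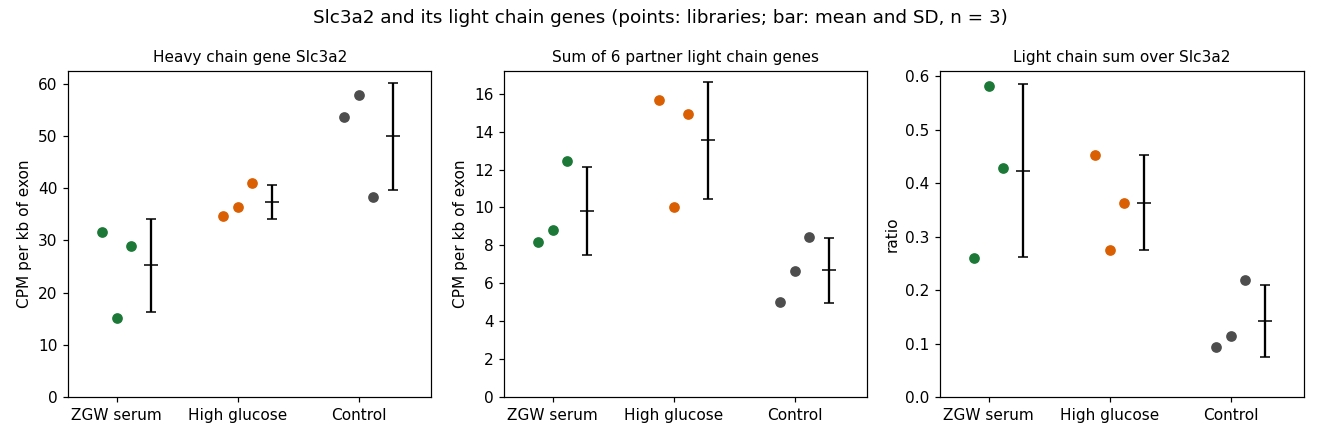
Left, Slc3a2 in CPM per kb of exon; middle, the sum of 6 light chain genes in CPM per kb of exon; right, the ratio of the sum to Slc3a2; points are libraries and the bar is the mean with its SD (n = 3). The control ratios of 0.0936 to 0.220 lie below all ratios of the other groups, which begin at 0.260.

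Slc7a11 and Slc7a5 made up most of the light chain sum. Slc7a11 held 51.3 ± 17.01% of it with ZGW serum, 50.1 ± 9.67% under high glucose and 45.6 ± 10.4% in control. Slc7a5 held 25.6 ± 20.1%, 32.2 ± 9.54% and 24.3 ± 6.56% in the same groups (SD, n = 3 each). For both genes the libraries of all groups overlapped in this share.

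In the cationic branch of the SLC7 family, Slc7a14, a lysosomal relative of the arginine and lysine carriers, was by far the most counted. It was at 84.1, 83.1 and 100.8 CPM with ZGW serum, 73.6, 34.0 and 32.9 CPM under high glucose and 108.4, 56.9 and 48.6 CPM in control. The ZGW serum libraries lay above all high glucose libraries, and the controls spanned both groups. The log2 fold change of ZGW serum over high glucose was 0.93 ± 0.41 (edgeR adjusted p = 0.574), and that of high glucose over control was -0.61 ± 0.41 (edgeR adjusted p = 0.794). All 5 members of the branch were tested, and all 5 had positive log2 fold changes for ZGW serum over high glucose, from 0.04 to 0.97, of which none passed. The sign was not stable for 2 of them: Slc7a1 changed sign in 4 of 17 alternatives, down to -0.59, and Slc7a2 in 2 of 17, down to -0.33. Slc7a1 and Slc7a2, carriers of arginine, averaged 5.65 ± 4.07 and 13.0 ± 12.9 CPM with ZGW serum, 5.495 ± 3.72 and 7.10 ± 0.938 CPM under high glucose and 2.14 ± 3.33 and 7.08 ± 3.09 CPM in control (SD, n = 3 each). The Slc7a2 mean with ZGW serum rested on replicate 3 at 27.7 CPM, and its log2 fold change of ZGW serum over control, 0.87 ± 0.76, was -0.33 without that library. Slc7a3 and Slc7a4 lay between 0.231 and 2.41 CPM in every library, and both were higher in all ZGW serum than in all high glucose libraries.

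The glutamate and aspartate carriers were represented mainly by Slc1a1, the widespread carrier that also moves cysteine. It was at 1.18, 0.638 and 2.22 CPM with ZGW serum, 5.45, 2.93 and 2.12 CPM under high glucose and 11.6, 6.34 and 4.39 CPM in control. All ZGW serum libraries lay below all controls, and high glucose overlapped both. The log2 fold change of ZGW serum over control was -2.46 ± 0.84 (edgeR adjusted p = 0.416), with adjusted p from 0.051 by DESeq2 to 0.757 over the alternatives. Its counts were 12 to 159 per library, and 31.0% of its 50-base stretches occur on the opposite strand in transcripts of 4430402I18Rik. Slc1a3, a glial carrier, averaged 0.784 ± 0.200 CPM with ZGW serum, 3.13 ± 2.25 CPM under high glucose and 3.35 ± 2.69 CPM in control (SD, n = 3 each), and did not pass (edgeR adjusted p = 0.619 for ZGW serum over high glucose and 0.534 over control).

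Of the neutral exchangers of the SLC1 family, Slc1a5, which takes up glutamine, ranged from 1.49 to 12.7 CPM with ZGW serum, 5.15 to 13.1 CPM under high glucose and 2.33 to 10.8 CPM in control. Slc1a4, which prefers serine and alanine, was at 2.13, 2.39 and 0.8001 CPM with ZGW serum, 0.605, 1.23 and 2.94 CPM under high glucose and 0.365, 0.745 and 0.585 CPM in control. The ZGW serum libraries of Slc1a4 lay just above all controls (log2 fold change 1.64 ± 0.88, edgeR adjusted p = 0.573), and high glucose over control gave 1.48 ± 0.88 (edgeR adjusted p = 0.758).

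Slc6a15, a sodium-coupled carrier of branched-chain amino acids and proline, led the SLC6 amino acid carriers. It was at 40.6, 23.7 and 16.2 CPM with ZGW serum, 59.4, 54.0 and 72.2 CPM under high glucose and 49.4, 29.7 and 87.5 CPM in control. The ZGW serum libraries lay below all high glucose libraries, and the controls spread over both ranges. The log2 fold change was -1.21 ± 0.46 for ZGW serum over high glucose (edgeR adjusted p = 0.533) and -1.05 ± 0.46 for ZGW serum over control (edgeR adjusted p = 0.492). Slc6a20a, a carrier of proline and related imino acids, was at 9.47, 9.04 and 43.4 CPM with ZGW serum, 14.7, 14.1 and 19.8 CPM under high glucose and 15.5, 12.2 and 16.6 CPM in control. ZGW serum replicate 3 was more than 4 times as high as its group's other libraries, and 15.3% of the 50-base stretches of Slc6a20a are shared with its neighbour Slc6a20b. Slc6a20b was at 3.55, 5.0 and 4.00 CPM with ZGW serum, 5.07, 3.54 and 11.99 CPM under high glucose and 1.97, 3.13 and 2.78 CPM in control. Both treated groups of Slc6a20b lay above all controls, with log2 fold changes of 0.67 ± 0.73 for ZGW serum (edgeR adjusted p = 0.801) and 1.38 ± 0.74 for high glucose (edgeR adjusted p = 0.723), and 20.1% of its stretches occur on the opposite strand in Sacm1l.

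Slc6a14, a broad carrier of neutral and cationic amino acids, was low and uneven between libraries. It had 0, 75 and 10 counts with ZGW serum, 0, 4 and 0 under high glucose and 92, 84 and 2 in control. Its log2 fold changes of -5.28 ± 2.06 for high glucose over control and 3.87 ± 1.96 for ZGW serum over high glucose did not pass (edgeR adjusted p = 0.636 and 0.613). The proline carrier Slc6a7 ranged from 2.65 to 9.87 CPM over the 9 libraries. Slc6a17, Slc6a18 and Slc6a5 had 15, 12 and 9 counts in all and were not tested. Of 140 counts of Slc6a19, 128 came from control replicate 1, and otherwise Slc6a18, Slc6a19 and Slc6a19os, which lie side by side on chromosome 13, had equal counts in 7 or 8 of the 9 libraries, so that the table hardly separates them.

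Among the carriers of GABA, monoamines and creatine, 4 of 7 were tested. The serotonin carrier Slc6a4 ranged from 1.03 to 16.2 CPM with ZGW serum, 1.47 to 4.16 CPM under high glucose and 0.146 to 12.2 CPM in control. The creatine carrier Slc6a8 was at 0.474, 0.532 and 0.267 CPM with ZGW serum, 0.605, 0.539 and 2.94 CPM under high glucose and 3.07, 2.61 and 0.146 CPM in control, and all ZGW serum libraries lay below all high glucose libraries by a narrow margin (log2 fold change -1.65 ± 1.13, edgeR adjusted p = 0.730). The GABA carrier Slc6a13 had no count in any ZGW serum library, 19, 0 and 10 counts under high glucose and 0, 0 and 37 counts in control. Set against a floor of 3 counts over the group, Slc6a13 was at least 10.7-fold lower with ZGW serum than under high glucose and at least 12.9-fold lower than in control (edgeR adjusted p = 0.574 and 0.484), though libraries at 0 were found in all groups. These bounds cover counting error only, and the control value rests on replicate 3 alone. Over the alternatives, the log2 fold change of ZGW serum over control ran up to 0.0.

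The SLC38 family of sodium-coupled neutral carriers was the largest, with 11 members and 9 tested. Slc38a8, a glutamine carrier known from the retina, was at 1.58, 16.5 and 12.6 CPM with ZGW serum, 6.73, 12.9 and 15.6 CPM under high glucose and 0.219, 2.91 and 2.12 CPM in control. All high glucose libraries lay above all controls, and ZGW serum did so in 2 of 3 libraries. The log2 fold change was 2.74 ± 1.04 for high glucose over control (edgeR adjusted p = 0.627) and 2.55 ± 1.03 for ZGW serum over control (edgeR adjusted p = 0.470).

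Slc38a2, a carrier of small neutral amino acids that cells raise when amino acids run short, was close to absent under high glucose. It had 2, 14 and 4 counts with ZGW serum, 1, 1 and 0 counts under high glucose and 1, 34 and 34 counts in control. Control replicate 1 was as low as the high glucose libraries. The pooled ratio of high glucose to control was 0.0308 (95% exact interval 0.00365 to 0.115, counting error only) and that of ZGW serum to high glucose was 9.0 (2.19 to 79.5), and neither passed the edgeR test (adjusted p = 0.627 and 0.590). Slc38a3, which carries glutamine, averaged 1.80 ± 0.212 CPM with ZGW serum, 0.861 ± 0.314 CPM under high glucose and 1.81 ± 0.534 CPM in control (SD, n = 3 each). The high glucose libraries of Slc38a3 lay below all others, with log2 fold changes of 1.06 ± 0.75 for ZGW serum over high glucose and -1.06 ± 0.75 for high glucose over control (edgeR adjusted p = 0.739 and 0.803).

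The remaining tested SLC38 genes overlapped between groups. Slc38a9, the lysosomal arginine sensor of the growth regulator mTORC1, averaged 5.42 ± 2.83 CPM with ZGW serum, 6.62 ± 6.36 CPM under high glucose and 8.60 ± 3.26 CPM in control (SD, n = 3 each). Slc38a7, a lysosomal glutamine carrier, was the steadiest under high glucose at 6.20 ± 0.560 CPM, against 4.30 ± 1.74 CPM with ZGW serum and 3.54 ± 2.32 CPM in control. Slc38a4, Slc38a5, Slc38a6 and Slc38a10 ranged from 0.0730 to 17.7 CPM, and 22.8% of the 50-base stretches of Slc38a6 occur in other transcripts. Slc38a1 reached 4.89 CPM in ZGW serum replicate 2 and 3.06 CPM in control replicate 2 and was below 0.5 CPM elsewhere. Slc38a11 had no control count and 56, 17 and 1 counts with ZGW serum, at least 23.6-fold higher against a floor of 3 counts over the control group, and was not tested.

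Slc36a1, a proton-coupled carrier of lysosomes and the cell surface, was at 2.84, 4.26 and 1.87 CPM with ZGW serum, 1.59, 13.9 and 12.8 CPM under high glucose and 1.82, 1.71 and 6.87 CPM in control. Replicates 2 and 3 under high glucose were the highest of the 9, and replicate 1 the lowest (ZGW serum over high glucose, log2 fold change -1.65 ± 0.95, edgeR adjusted p = 0.666). The other SLC36 genes had 3 to 55 counts in all. Slc43a3 was at 30.9, 30.2 and 43.4 CPM with ZGW serum, 16.5, 49.9 and 51.1 CPM under high glucose and 9.12, 26.5 and 47.7 CPM in control, with overlap in all comparisons. Slc43a2, a carrier of large neutral amino acids, ranged from 2.63 to 9.62 CPM, and its relative Slc43a1 had 26 counts in all. Slc7a6os, which encodes no carrier, varied the least between libraries of a group among the 42 genes tested, at 16.9, 23.7 and 22.3 CPM with ZGW serum, 27.0, 28.6 and 18.2 CPM under high glucose and 13.9, 22.7 and 21.3 CPM in control.

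The share of all counts in the 61 genes was small and close between groups, while its makeup varied. It was 0.0481%, 0.0453% and 0.0544% with ZGW serum, 0.0516%, 0.0552% and 0.0601% under high glucose and 0.0528%, 0.0514% and 0.0518% in control. The groups overlapped in each comparison. Slc3a2, Slc7a11, Slc7a14, Slc6a15 and Slc43a3 held between 56.4% and 72.4% of the class in every library. Slc3a2 alone held 18.4 ± 5.65% of it with ZGW serum, 23.4 ± 0.891% under high glucose and 33.1 ± 6.82% in control (SD, n = 3 each), and every library of the other groups lay below every control in this share.

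**Figure D4:**
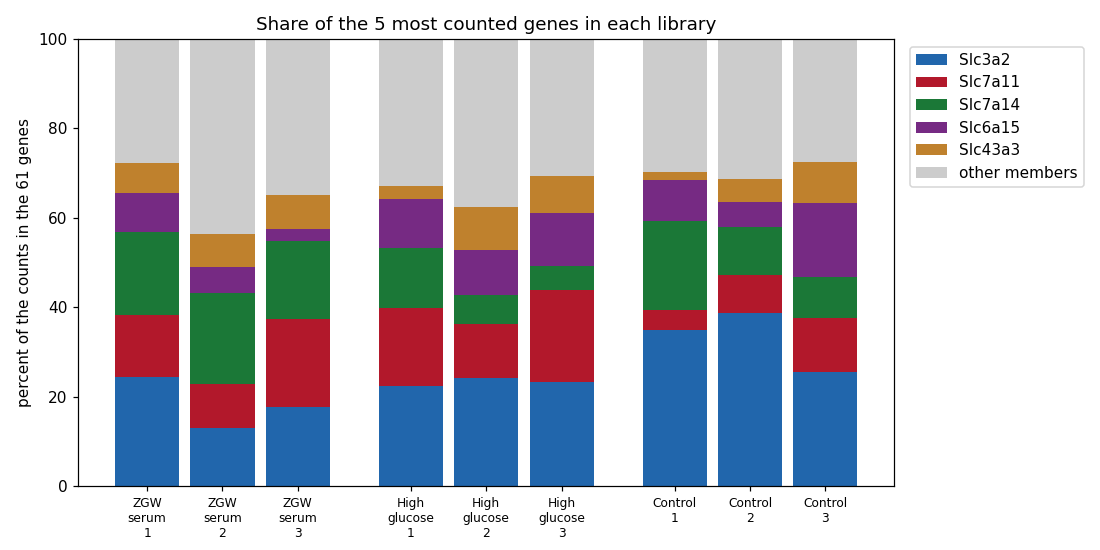
Percent of the counts in the 61 genes that fell on the 5 most counted genes, stacked for each library, with the remaining 56 genes in grey. Slc3a2, the lowest band, takes 13.1% to 24.3% with ZGW serum, 22.4% to 24.2% under high glucose and 25.5% to 38.8% in control.

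ZGW serum against control asks how far embryos with the drug serum were from unloaded ones. None of the 42 genes passed after adjustment by edgeR (0.0% of all 16964 genes did), by DESeq2 (2.05% of all genes did) or by limma-voom (0.00589% of all genes did). In each comparison DESeq2 gave no adjusted p for some members of low count, among them Slc38a2, Slc6a13 and Slc7a10. The lowest adjusted p among the members in edgeR was 0.409, for Slc3a2. At an unadjusted p under 0.05, Slc38a8 was higher and Slc1a1, Slc3a2, Slc6a13, Slc6a15 and Slc7a8 were lower, 6 of 42 or 14.3% against a background of 9.86%. By direction this was 2.38% higher against 4.21% and 11.9% lower against 5.65% of all genes. Groups did not overlap for 4 members or 9.52%, against 16.3% of all genes: Slc1a4 and Slc6a20b were higher (9.02% of all genes) and Slc1a1 and Slc3a2 lower (7.3%). Log2 fold changes were above 0 for 22 members (52.4%, against 50% of all genes) and below 0 for 20, with a median of 0.06 against 0.00 over all genes. Besides those already named, the members of lowest p among the higher ones were Slc7a10 (1.54 ± 1.27, edgeR adjusted p = 0.727) and Slc7a2 (edgeR adjusted p = 0.748).

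ZGW serum against high glucose compares groups that both had the glucose load. Whether they differ in serum as well as drug is not stated. Again none of the 42 genes passed by edgeR (0.0% of all genes), by DESeq2 (1.42% of all genes) or by limma-voom (0.0% of all genes), and the lowest adjusted p among the members in edgeR was 0.533, for Slc6a15. At an unadjusted p under 0.05, Slc7a14 was higher and Slc6a13 and Slc6a15 were lower, 3 of 42 or 7.14% against 8.68% of all genes (3.8% higher and 4.89% lower). Groups did not overlap for 8 members or 19.0%, against 17.3%: Slc38a2, Slc38a3, Slc7a14, Slc7a3 and Slc7a4 were higher (9.08% of all genes) and Slc3a2, Slc6a15 and Slc6a8 lower (8.26%). Log2 fold changes were above 0 for 15 members (35.7%, against 50.1% of all genes) and below 0 for 27, with a median of -0.21 against 0.00 over all genes. Below 0 were 7 of the 8 light chains and relatives, Slc7a10 being above at 1.57 ± 1.27 (edgeR adjusted p = 0.776), all 3 glutamate and aspartate carriers, and both heavy chains, while the cationic branch lay above 0. Among these, Slc7a8, Slc7a9 and Slc1a7 changed sign in 3 of 15, 1 of 17 and 6 of 17 alternatives. Of the 20 oocyte and 2-cell markers, 6 had an unadjusted p under 0.05 in edgeR in this comparison, against 8.68% of all genes. None of the 20 passed after adjustment, and 14 lay below 0 and 6 above. Tcstv1, another 2-cell marker, overlapped, at 300.6, 581.9 and 337.7 CPM with ZGW serum and 354.8, 575.7 and 486.0 CPM under high glucose. Zscan4c, a gene of the burst of transcription at the 2-cell stage, was at 1396, 947.4 and 472.6 CPM with ZGW serum, 2111, 4375 and 2168 CPM under high glucose and 1500, 1095 and 3308 CPM in control. Its ZGW serum libraries lay below all high glucose libraries (log2 fold change -1.62 ± 0.50, edgeR adjusted p = 0.465), as did those of Usp17lc (-2.04 ± 0.39, edgeR adjusted p = 0.370). The part of such a difference between the groups in the carrier values was not tested.

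High glucose against control compares embryos with the glucose load and without it, and the labels do not state whether either group was given rat serum. None of the 42 genes passed by edgeR (0.0% of all genes), by DESeq2 (0.76% of all genes) or by limma-voom (0.0% of all genes), and the lowest adjusted p among the members in edgeR was 0.627. At an unadjusted p under 0.05, Slc38a8, Slc7a11 and Slc7a5 were higher and Slc38a2 and Slc6a14 were lower, 5 of 42 or 11.9% against 7.39% of all genes (3.88% higher and 3.5% lower). Groups did not overlap for 4 members or 9.52%, against 13.7%: Slc38a8, Slc6a20b and Slc7a5 were higher (6.84% of all genes) and Slc38a3 lower (6.91%). Log2 fold changes were above 0 for 22 members (52.4%, against 49.0% of all genes) and below 0 for 20, with a median of 0.00 against -0.02 over all genes. By role, 5 of 8 light chains and relatives and both SLC1 exchangers lay above 0, and all 4 tested carriers of GABA, monoamines and creatine lay below. Slc6a13 lay at -0.26 ± 1.84 and changed sign in 4 of 16 alternatives, up to 6.36, Slc6a2 and Slc6a8 in 1 of 16 each, and the light chain Slc7a9 in 3 of 17.

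The 3 comparisons share libraries in pairs, so values for the same gene in different comparisons are not independent of each other. The median standard error of a member's log2 fold change was 0.93, 0.93 and 0.92 for high glucose over control, ZGW serum over high glucose and ZGW serum over control, against 0.78 for all genes in each. Libraries of the same group differed widely. With values under 0.1 CPM set to 0.1, the highest library of a group was at least 10 times the lowest in some group for 16 of 42 members (38.1%, against 31.2% of all genes tested). Slc38a6 reached 177-fold, Slc38a9 84.95-fold, Slc6a4 83.8-fold and Slc38a4 70.2-fold. Among members with a mean of 1 to 10 CPM this applied to 14 of 30 (46.7%, against 50.7% of all genes at that level), and among the 8 with at least 10 CPM to none (0.0%, against 7.63%).

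Related gene sets were read in the same fit, and none of their members passed by edgeR. Amino acid carriers of other families (mitochondrial and monocarboxylate types among them) had 17 genes tested, and 9 were above 0 for ZGW serum over control, 8 for ZGW serum over high glucose and 11 for high glucose over control, with medians of 0.10, -0.27 and 0.42. Slc25a13, the mitochondrial aspartate-glutamate exchanger, averaged 24.7 ± 5.70 CPM with ZGW serum, 42.4 ± 24.2 CPM under high glucose and 12.1 ± 7.11 CPM in control (SD, n = 3 each; high glucose over control 1.81 ± 0.61, edgeR adjusted p = 0.627). Slc16a10, a carrier of aromatic amino acids, was at 19.2, 6.81 and 10.4 CPM with ZGW serum, 11.3, 16.8 and 26.3 CPM under high glucose and 7.08, 5.82 and 7.38 CPM in control. Its high glucose libraries lay above all controls, without passing the test (edgeR adjusted p = 0.653).

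Genes by which amino acids signal to mTORC1 had 33 tested, and 19, 18 and 20 were above 0 for ZGW serum over control, ZGW serum over high glucose and high glucose over control, with medians of 0.11, 0.03 and 0.12. Deptor, an inhibitor of mTOR, averaged 112.5 ± 12.5 CPM with ZGW serum, 110.1 ± 20.4 CPM under high glucose and 62.3 ± 18.3 CPM in control (SD, n = 3 each; edgeR adjusted p = 0.416 for ZGW serum and 0.627 for high glucose over control). Lamtor2, part of the lysosomal scaffold of mTORC1, was at 110.2, 120.4 and 187.9 CPM with ZGW serum, 47.8, 60.6 and 78.9 CPM under high glucose and 67.1, 102.9 and 88.2 CPM in control. All ZGW serum libraries lay above all others for Lamtor2 (ZGW serum over high glucose 1.16 ± 0.32, edgeR adjusted p = 0.418).

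Genes of the ATF4 response to amino acid shortage had 25 tested, and 11, 15 and 10 were above 0 for ZGW serum over control, ZGW serum over high glucose and high glucose over control, with medians of -0.24, 0.14 and -0.46. Eif4ebp1, a brake on translation initiation, was at 35.8, 37.8 and 35.2 CPM with ZGW serum, 31.0, 17.6 and 42.3 CPM under high glucose and 98.2, 86.7 and 50.4 CPM in control. Every library of the other groups lay below every control (edgeR adjusted p = 0.434 for ZGW serum and 0.627 for high glucose over control). Mthfd2, a mitochondrial enzyme of folate metabolism, averaged 236.5 ± 39.4 CPM with ZGW serum, 514.1 ± 158 CPM under high glucose and 387.3 ± 40.5 CPM in control (SD, n = 3 each; ZGW serum over high glucose -1.12 ± 0.28, edgeR adjusted p = 0.370). Other members of low p were higher with ZGW serum. Cebpg had the lowest p of the list for ZGW serum over control (1.13 ± 0.32, edgeR adjusted p = 0.394). Its ZGW serum libraries, at 95.3, 100.2 and 73.8 CPM, lay above all others. Eif2ak4 gave 1.23 ± 0.44 over control (edgeR adjusted p = 0.4395). Nupr1 and Cth gave 1.80 ± 0.54 and 0.78 ± 0.30 over high glucose (edgeR adjusted p = 0.465 and 0.533).

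Cytosolic aminoacyl-tRNA synthetases, which charge tRNAs with the imported amino acids, had 23 tested, and 10, 8 and 13 were above 0 for ZGW serum over control, ZGW serum over high glucose and high glucose over control, with medians of -0.23, -0.42 and 0.22. Dars, for aspartate, was at 13.8, 15.2 and 5.69 CPM with ZGW serum, 24.0, 25.9 and 23.7 CPM under high glucose and 38.5, 24.8 and 34.6 CPM in control, and its ZGW serum libraries lay below all others (ZGW serum over control -1.49 ± 0.46, edgeR adjusted p = 0.403). Lars, for leucine, averaged 7.11 ± 7.40 CPM with ZGW serum, 5.22 ± 3.79 CPM under high glucose and 0.786 ± 0.193 CPM in control (SD, n = 3 each), and every library of the other groups lay above every control (edgeR adjusted p = 0.409 and 0.627).

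The osmolyte carriers outside the set were of like abundance to its upper members. Slc6a6, the taurine carrier, averaged 27.7 ± 2.87 CPM with ZGW serum, 19.4 ± 19.1 CPM under high glucose and 13.5 ± 4.95 CPM in control, and the glycine carrier Slc6a9 averaged 22.6 ± 13.8, 28.8 ± 6.54 and 23.9 ± 8.50 CPM in the same groups (SD, n = 3 each). The betaine carrier Slc6a12 had no count in any library.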

How the data were processed

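RNA sequencing had been run on 9 libraries of 3 pooled embryos each, 3 libraries per group. The authors deposited a table of raw counts per gene, and the values are whole numbers. Reads were trimmed with Trim Galore and the build was mm10, per the submitters' processing notes, while aligner, counter, annotation and strand setting were not given in the sources used here. Counts on opposite strands or from shared sequence can therefore be mixed between genes.

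All 9 libraries entered a single edgeR 4.0.16 quasi-likelihood fit (R 4.3.3) with TMM scaling. Genes were kept by filterByExpr with a minimum count of 10, and p-values were adjusted by Benjamini-Hochberg across all 16964 of them and called under 0.05. The shared coefficient of biological variation came to 0.731. CPM are counts divided by the TMM-scaled library size, and levels per kb divide by exon bases of GENCODE annotation on GRCm38. The script was tested on simulated data. Alternatives were DESeq2 1.42.0, limma-voom with quality weights (limma 3.58.1), other scalings and filters, a replicate block and leaving libraries out. The median without opposite-strand genes, and the counts of groups without overlap when control replicate 1 and ZGW serum replicate 3 are left out, were chosen after seeing the data. Tables were made in Python 3.11.15 with pandas 2.3.3 and statsmodels 0.14.6.

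The members and lists were chosen with earlier results of these data known. Every member was counted by role, and values were given for members with a mean of at least 10 CPM, for the heavy and light chains, and for the 5 members of lowest p in each direction of each comparison. Other members appear with their range, and from each further list up to 3 genes of lowest p per comparison could be named. A floor of 3 counts over a group, and exact intervals, cover counting error only.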

Additional observations from a re-analysis of the deposited data

How the results depend on the processing

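No amino acid transporter gene passed in any of the 17 alternatives of any comparison, against 348, 241 and 129 calls over all genes by DESeq2 (ZGW serum over control, ZGW serum over high glucose, high glucose over control) and 0 by edgeR. The lowest adjusted p of a member over the alternatives was 0.0507, 0.209 and 0.163 in the same order. Some members of low count had no adjusted p in some of the alternatives. The replicate numbers did not pair the libraries (correlations of -0.0065 to 0.104, 1 of 9 over 0.1). With the replicate block 0 members passed, and the member medians were 0.10, -0.28 and 0.04. The member median ranged over the alternatives from -0.10 to 0.14, -0.33 to -0.10 and -0.04 to 0.28.

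Of 717 alternative log2 fold changes of named members, 20 changed sign, and the cause was not tested. For ZGW serum over control, the fit that omits both control replicate 1 and ZGW serum replicate 3 gave -0.037 for Slc7a11, -0.0073 for Slc7a2, -0.61 for Slc6a20a, -0.25 for Slc43a3 and -0.090 for Slc7a6os, and limma-voom gave -0.12 for Slc6a20a. With single libraries left out, the range was -0.33 to 1.29 for Slc7a2, -0.19 to 0.90 for Slc7a5, -0.65 to 0.83 for Slc6a20a, -0.095 to 0.93 for Slc43a3 and -0.071 to 0.26 for Slc7a6os. For ZGW serum over high glucose, Slc6a20a was -0.32 by limma-voom and -0.77 without both libraries, and ranged from -0.78 to 0.71 with single libraries left out. Slc43a3 was 0.034 with the replicate block and ranged from -0.54 to 0.065. For high glucose over control, Slc6a15 ranged from -0.14 to 0.61 and Slc6a20a from -0.037 to 0.20.

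Without control replicate 1 and ZGW serum replicate 3, which leaves 2 libraries in each of those groups, groups did not overlap for 14 of 42 members or 33.3% (37.9% of all genes) for ZGW serum over control, 12 or 28.6% (28.6%) for ZGW serum over high glucose and 10 or 23.8% (23.5%) for high glucose over control. Without the 10 most counted genes in the total, the members' share was 0.0595%, 0.0637% and 0.0612% with ZGW serum, under high glucose and in control. The median standard error of the members was 0.92 to 0.93 on the log2 scale, against 0.78 over all genes.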
